A study of Rattus norvegicus with 8 samples.

Results

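The genes described are 10 neutrophil granule and calprotectin genes, taken as every probe set that the annotation of the array platform maps to exactly 1 of their symbols. The rule found 9 probe sets of 8 genes among 31042 tested probe sets, of which 20826 name 1 gene. S100a8, S100a9, Mmp8, Mmp9, Csf3r and Il1r2 form the mature group, with 2 probe sets for Mmp9 and 1 for each of the others. Of the 4 early granule genes, Camp and Lcn2 have 1 probe set each, while Mpo and Elane were matched by no probe set and are not analysed here. Whole blood came from male Wistar rats bought at 7 weeks of age and, after a week on normal chow, fed for 8 weeks either a high-fat diet (Quick fat) with 1% mulberry leaf powder or the high-fat diet alone. Blood was drawn on day 56 after an overnight fast, and 4 arrays per diet are given as biological replicates of groups of 10 rats. It is not stated how many rats contributed RNA to each array, so every p-value here reflects only variation among these arrays, part of which may be technical. Both groups ate the high-fat diet, so the comparison asks what mulberry leaf adds to it, and says nothing of the high-fat diet itself.

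Neutrophils are short-lived phagocytes that leave the bone marrow with their granules already filled. Granule proteins are made in order during maturation: the azurophil enzymes myeloperoxidase and neutrophil elastase (Mpo, Elane) in promyelocytes, cathelicidin and lipocalin 2 (Camp, Lcn2) later in myelocytes and metamyelocytes, and gelatinase (Mmp9) later still. Transcripts of surface receptors such as Csf3r and of the calprotectin subunits S100a8 and S100a9 stay high in circulating cells, so blood normally holds much of the second kind of message and little of the first. In whole blood, fewer cells of a type and less RNA per cell cannot be told apart.

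Levels of blood cell marker genes were read beside the tissue label. No markers of other tissues were set beside them, so they do not test the label. The beta globin gene Hbb had a mean log2 value of 15.09. Mean values of the markers measured ran from 7.76 to 15.09 for erythroid cells (8 of 10 genes), from 7.91 to 12.67 for platelets (7 of 9), from 6.30 to 10.52 for T cells (9 of 9) and from 6.94 to 9.19 for B cells (5 of 8). The deposited values, read here as log2, change very little between arrays: the median SD of a probe set over the 8 arrays was 5.31e-06. Deviations are therefore given in SD units, in which 1 is the SD of that probe set over the 8 arrays and 0 its mean, and a difference is the mulberry mean minus the high-fat mean in those units. Such a unit does not measure a fold change. A mean log2 value is the brightness of 1 probe set, and since probe sets differ in affinity no gene's level is set against another's, mature against early genes included.

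The promoters of the members were searched for the letters of binding sites. RefSeq (GRCr8) gave the 250 bases upstream of the annotated start for 6 members, S100a9, Mmp8, Csf3r, Mpo, Camp and Lcn2. The letters TTNNGNAA, a loose form of the site of the C/EBP factors that drive granulocyte maturation, were searched on both strands. They occurred in 5 of the 6, all but Camp, against 37.2% of 33469 rat promoters of the same length. The letters GAGGAA, a core of sites for the myeloid factor PU.1, occurred in 3 of the 6 (S100a9, Csf3r and Mpo), against 23.3%. A match is a description of letters, not a bound site. Shown 5′ to 3′ on the gene's strand are 3 genes with r of 0.76 or more among themselves across the arrays (S100a9, Mmp8, Csf3r) and Lcn2, whose r with each of them was below 0. Capitals mark the TTNNGNAA matches. They come from chr2:178490623-178490872 (minus strand) for S100a9, chr8:13008640-13008889 (plus) for Mmp8, chr5:143582970-143583219 (plus) for Csf3r and chr3:36081781-36082030 (minus) for Lcn2.
S100a9: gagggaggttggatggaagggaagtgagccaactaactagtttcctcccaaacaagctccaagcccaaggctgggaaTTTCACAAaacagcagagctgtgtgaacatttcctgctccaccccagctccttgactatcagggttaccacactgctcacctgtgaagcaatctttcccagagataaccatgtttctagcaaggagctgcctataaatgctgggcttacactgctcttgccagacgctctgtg
Mmp8: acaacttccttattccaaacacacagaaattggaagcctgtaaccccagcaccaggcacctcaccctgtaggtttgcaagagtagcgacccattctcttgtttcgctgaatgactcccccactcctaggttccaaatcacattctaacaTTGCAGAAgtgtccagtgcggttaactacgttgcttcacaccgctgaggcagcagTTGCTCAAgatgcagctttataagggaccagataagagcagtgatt
Csf3r: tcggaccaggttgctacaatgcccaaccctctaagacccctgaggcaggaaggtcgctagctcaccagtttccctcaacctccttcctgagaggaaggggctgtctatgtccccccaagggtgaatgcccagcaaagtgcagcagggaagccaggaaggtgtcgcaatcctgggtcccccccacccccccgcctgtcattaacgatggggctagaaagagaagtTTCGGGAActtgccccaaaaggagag
Lcn2: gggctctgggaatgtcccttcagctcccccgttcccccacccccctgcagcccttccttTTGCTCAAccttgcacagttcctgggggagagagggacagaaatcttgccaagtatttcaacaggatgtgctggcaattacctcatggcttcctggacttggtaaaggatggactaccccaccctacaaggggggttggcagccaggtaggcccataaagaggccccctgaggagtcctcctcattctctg
The S100a9 match begins 173 bases before the start and the Csf3r match 26 bases before it. Mmp8 has 2, beginning 101 and 46 bases before the start, and the Lcn2 match begins 191 bases before it.

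No member differed between the diets by more than the spread between arrays. None of the 9 probe sets passed an adjusted p of 0.05 in limma, where 0% of all tested probe sets passed, and 0 of 9 had an unadjusted p under 0.05, where 4.36% of all did. In none did the 4 mulberry arrays lie all above or all below the 4 high-fat arrays, separations seen in 1.6% and 0.915% of all tested probe sets. Means were higher with mulberry in 7 of the 9 and lower in 2, Mmp8 and Lcn2. Over all tested probe sets 52.7% had a higher mean. After each array was centred on its median, 96.9% of all probe sets and all 9 member probe sets had a higher mean, so directions depend on this scaling. The array medians differed by -3.45e-05 (mulberry minus high-fat), against a median SD of a probe set of 5.31e-06. Centring therefore raised every difference by the same amount, large beside most SDs. On that scale the mulberry arrays lay all above the high-fat arrays in 2 of 9 member probe sets, S100a8 and 1 of Mmp9 (1398275_at), against 7.93% of all probe sets, and all below in 0 of 9, against 0.00644%. There 3 of 9, those 2 and Camp, had an unadjusted p under 0.05 in limma, against 8.03% of all, and none passed after adjustment. These counts carry the added offset and are not read as a result about the members. As deposited, the median difference was 0.24 over the 9 and 0.056 over all. Each member's adjusted p was 1 in limma.

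S100a8 and S100a9 encode calcium-binding proteins that pair into calprotectin, a major cytosolic protein of neutrophils that withholds zinc and manganese from microbes and is released as a danger signal. Their genes are direct neighbours on chromosome 2, with 0 protein-coding genes between them in RefSeq. The mean log2 value was 10.44 for the S100a8 probe set (1368494_at) and 11.10 for that of S100a9 (1387125_at).

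S100a8 stood at 0.59, -0.03, 0.02 and 0.79 SD units in mulberry replicates 1 to 4, against 0.50, -2.37, 0.11 and 0.38 in high-fat replicates 1 to 4. The groups overlapped, and high-fat replicate 2 lay far below the other 7 arrays. The difference was 0.69 ± 0.67 (SE, n = 4 per diet, limma adjusted p = 1), and 0.01 without that array. S100a9 stood at 0.57, -0.58, -0.46 and 0.95 in the mulberry arrays and at 1.25, -1.84, -0.30 and 0.42 in the high-fat arrays. High-fat replicate 2 was again the lowest and high-fat replicate 1 the highest, so the high-fat arrays enclosed all mulberry arrays. The difference of 0.24 ± 0.71 (SE) turned to -0.34 without high-fat replicate 2 and to -0.04 without mulberry replicate 4.

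With the hybridization controls, bacterial transcripts added to every array, in the limma model, the S100a8 difference was 1.72 ± 0.69 (SE, unadjusted p = 0.0478) and that of S100a9 1.43 ± 0.67, and neither passed after adjustment. Those controls averaged 0.56 ± 0.63 in the mulberry and -0.56 ± 0.86 in the high-fat arrays (SD, n = 4 each). Their part in the calprotectin values was not otherwise tested.

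**Figure D1:**
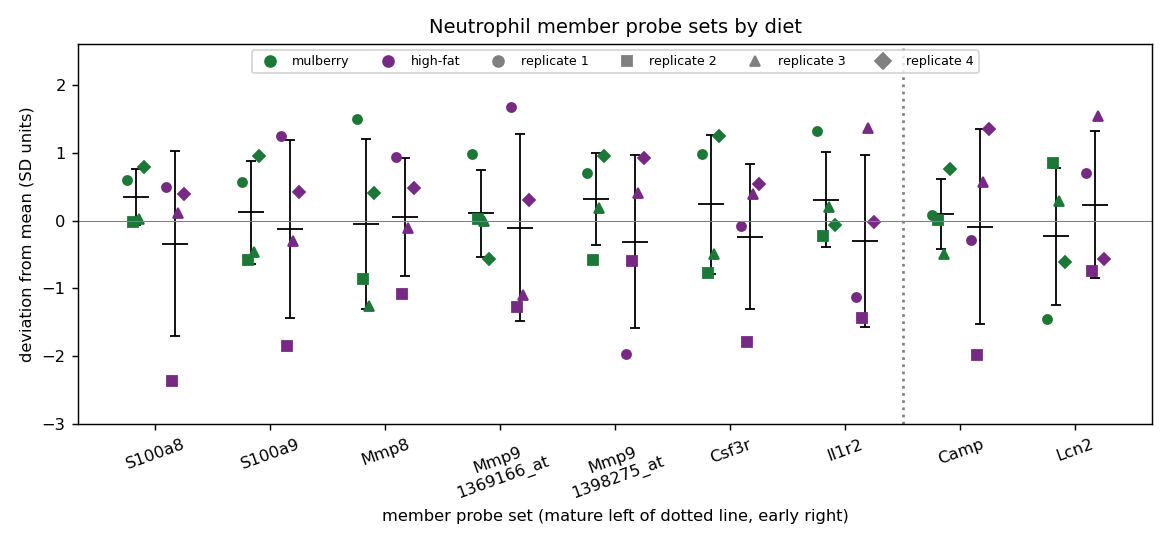
Each member probe set's deviation from its own mean, in SD units, on the 4 mulberry arrays (green) and the 4 high-fat arrays (purple); marker shapes are replicate numbers, horizontal ticks are diet means and bars are ± 1 SD (n = 4). The diets overlap in all 9 probe sets, and high-fat replicate 2 (purple square) is the lowest array in 6 of them.

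The 2 receptor genes had higher means with mulberry, within the spread. Csf3r encodes the receptor for granulocyte colony-stimulating factor, which drives neutrophil output. Its probe set (1386009_at) had a mean log2 value of 7.73. Csf3r stood at 0.98, -0.78, -0.49 and 1.24 SD units in the mulberry arrays and at -0.08, -1.79, 0.38 and 0.54 in the high-fat arrays. Mulberry replicates 4 and 1 were the highest and high-fat replicate 2 the lowest. The difference was 0.48 ± 0.69 (SE, limma adjusted p = 1), and -0.04 without high-fat replicate 2.

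Il1r2 encodes the decoy receptor that binds interleukin-1 without signalling. The SD of its probe set (1387180_at) over the arrays on the deposited scale, 0.00198, exceeded that of 99.6% of tested probe sets, so its values are readable as deposited. They were 7.252, 7.249, 7.250 and 7.249 in the mulberry arrays and 7.247, 7.247, 7.252 and 7.249 in the high-fat arrays. High-fat replicate 3 was the highest and high-fat replicates 1 and 2 the lowest, again enclosing all mulberry arrays. The difference was 0.61 ± 0.68 SD units (SE). It ranged from 0.24 to 1.17 when 1 array was left out, and was 0.24 without high-fat replicate 2 and 0.28 without mulberry replicate 1.

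Mmp8, the neutrophil collagenase, had a mean log2 value of 6.44 (1387735_at), above that of 42.3% of tested probe sets. It stood at 1.49, -0.86, -1.26 and 0.41 SD units in the mulberry and at 0.93, -1.08, -0.11 and 0.48 in the high-fat arrays. Mulberry arrays were thus both the highest and the lowest. The difference was -0.11 ± 0.72 (SE). It turned positive under 6 of the alternatives, reaching 1.33 after each array was centred on its median.

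Mmp9, which encodes gelatinase B, gave 2 probe sets that disagreed. The brighter, 1398275_at (mean log2 value 6.60), stood at 0.70, -0.59, 0.18 and 0.95 SD units in the mulberry and at -1.97, -0.59, 0.40 and 0.91 in the high-fat arrays. The dimmer, 1369166_at (6.15), stood at 0.98, 0.02, -0.01 and -0.57 in the mulberry and at 1.67, -1.28, -1.10 and 0.30 in the high-fat arrays. High-fat replicate 1 was the lowest array of the first probe set and the highest of the second. Across the 8 arrays the 2 had r = -0.37 (exact permutation p = 0.372) and rho = -0.07 (exact permutation p = 0.882), r = 0.06 without the 2 arrays farthest from the median, and r = 0.38 without high-fat replicate 1. Their differences between the diets were 0.62 ± 0.68 and 0.21 ± 0.72 (SE). The first ranged from 0.07 to 1.03 when 1 array was left out, and was 0.07 without high-fat replicate 1. The mean log2 values of the brighter and the dimmer exceeded those of 51.7% and 22.7% of tested probe sets. Whether the dimmer reads signal or background was not tested. Elsewhere Mmp9 is read from the brighter probe set.

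**Figure D2:**
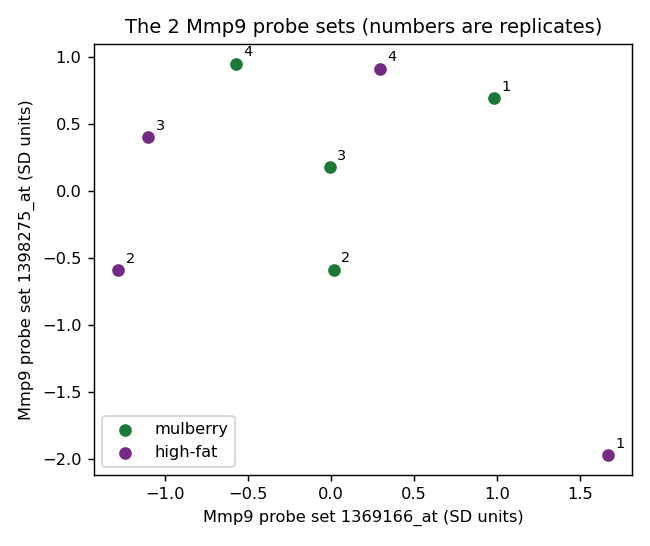
Deviation of the 2 Mmp9 probe sets from their own means, in SD units, on the 4 mulberry arrays (green) and the 4 high-fat arrays (purple), with the replicate number beside each point. High-fat replicate 1 lies at 1.67 on the horizontal and -1.97 on the vertical axis, apart from the other 7 arrays.

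Camp is the gene of the only rat cathelicidin, an antimicrobial peptide precursor of the specific granules. It had a mean log2 value of 6.55 (1393603_at), above that of 48.8% of tested probe sets. It stood at 0.08, 0.01, -0.50 and 0.76 SD units in the mulberry and at -0.29, -1.98, 0.56 and 1.35 in the high-fat arrays. The high-fat arrays held both ends. The difference was 0.18 ± 0.72 (SE), and -0.45 without high-fat replicate 2.

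Lcn2 encodes lipocalin 2, which binds bacterial siderophores and so keeps iron from bacteria. Its probe set (1387011_at) had a mean log2 value of 6.13, above that of only 21.8% of tested probe sets. It stood at -1.45, 0.85, 0.28 and -0.61 SD units in the mulberry and at 0.70, -0.74, 1.54 and -0.56 in the high-fat arrays. Mulberry replicate 1 was the lowest and high-fat replicate 3 the highest, an order unlike that of the other members. The difference was -0.47 ± 0.70 (SE), and 0.57 after median centring. It ranged from -0.83 to -0.03 when 1 array was left out, and was -0.03 without high-fat replicate 3 and -0.06 without mulberry replicate 1.

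Averaged over genes as a score, the 6 mature genes stood at 0.94, -0.51, -0.30 and 0.71 in the mulberry and at -0.08, -1.52, 0.31 and 0.45 in the high-fat arrays. The means were 0.21 ± 0.72 with mulberry and -0.21 ± 0.90 without (SD, n = 4 each). The score of Camp and Lcn2 averaged -0.07 ± 0.47 in the mulberry and 0.07 ± 1.02 in the high-fat arrays. Without high-fat replicate 2 the difference in mature score was -0.02, against 0.42 with it, and it became 0.99 on median-centred arrays and 0.90 once hybridization controls were a covariate. The difference in the score of Camp and Lcn2, -0.15, was -0.62 without high-fat replicate 2, and it turned to 0.18 without high-fat replicate 3 and to 0.06 without mulberry replicate 1.

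Although the diets did not separate them, several members varied together from array to array. Pearson correlations over the 8 arrays were computed for all 28 pairs of the 8 genes, with exact permutation p-values adjusted over the 28. The pairs that passed were S100a8 with S100a9 (r = 0.89, exact permutation p = 0.00104, adjusted p = 0.0215; rho = 0.93, exact permutation p = 0.00223) and S100a8 with Csf3r (r = 0.86, exact permutation p = 0.00154, adjusted p = 0.0215; rho = 0.93, exact permutation p = 0.00223). Without the 2 arrays farthest from the S100a8 median, r was 0.91 and 0.75. Without high-fat replicate 2 it was 0.91 and 0.84, and after centring within each diet it was 0.91 and 0.85. The number of pairs passing ran from 0 to 6 when 1 array was dropped. Dropping any of mulberry replicates 2 to 4, high-fat replicate 2 or high-fat replicate 4 left 0, and dropping high-fat replicate 1 left 6.

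S100a9 also ran with Csf3r (r = 0.82) and Mmp8 (r = 0.82), and Mmp8 with Csf3r (r = 0.76). These pairs had exact permutation p-values of 0.0127, 0.0137 and 0.0286 and did not pass after adjustment (0.0768, 0.0768 and 0.115). Their rho values were 0.76, 0.81 and 0.69 (exact permutation p = 0.0368, 0.0218 and 0.0694). Without the 2 farthest arrays r was 0.93, 0.81 and 0.76, and without high-fat replicate 2 it was 0.61, 0.82 and 0.72. S100a8 with Mmp8 had r = 0.63 (exact permutation p = 0.0508, adjusted p = 0.178; rho = 0.79, exact permutation p = 0.0279), and r = 0.97 without mulberry replicate 4 and high-fat replicate 2. Among the 20825 other probe sets naming 1 gene, 11 were at least as close to S100a9 as S100a8 was (0.0528%). The count was 50 for Csf3r and 55 for Mmp8. Each count includes the probe set of the gene named.

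Mmp9 and Il1r2 had r of 0.065 and 0.22 with S100a9 (exact permutation p = 0.866 and 0.598; rho = 0.31 and 0.14, exact permutation p = 0.462 and 0.752), and 38.8% and 24.0% of the other probe sets were at least as close. The Mmp9 value turned on high-fat replicates 1 and 2, the arrays farthest from the S100a9 median: without both, r was 0.86 for Mmp9 and 0.02 for Il1r2. By rank Mmp9 ran with Csf3r (rho = 0.83, exact permutation p = 0.0154, adjusted p = 0.102), where r was 0.58 (exact permutation p = 0.13), or 0.90 without the same 2 arrays. Mmp9 and Il1r2 correlated with each other at r = 0.66 (exact permutation p = 0.0812, adjusted p = 0.227; rho = 0.57, exact permutation p = 0.151). Without high-fat replicates 1 and 2 together, the arrays farthest from the Mmp9 median, r was 0.22, while with any 1 array left out it stayed between 0.55 and 0.73.

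Camp correlated with the 6 mature genes at r from 0.50 to 0.83 (median 0.61), highest with Csf3r (r = 0.83, exact permutation p = 0.0121, adjusted p = 0.0768; rho = 0.81, exact permutation p = 0.0218) and S100a8 (r = 0.83, exact permutation p = 0.0287, adjusted p = 0.115; rho = 0.62, exact permutation p = 0.115). Without the 2 arrays farthest from the first gene's median these were 0.53 and 0.17, and the median of the 6 was 0.31 without high-fat replicate 2. Camp's relation to S100a8 thus rests on few arrays. Lcn2 correlated with the 7 other genes at r from -0.41 to 0.10 (median -0.07), and with Camp at r = 0.09 (exact permutation p = 0.837; rho = 0.05, exact permutation p = 0.935; r = -0.07 without the 2 farthest arrays). No Lcn2 pair had an unadjusted p under 0.05. Without high-fat replicate 2 the median of its 7 values was -0.52, ranging from -0.68 with S100a8 to -0.15 with Il1r2, so the values near 0 rest on that array, in which Lcn2 and most mature members were low together. Whether Camp and Lcn2 differ in this was not tested. Nor was it tested whether the dim Lcn2 probe set, or those of Camp and Mmp8, read signal or background.

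**Figure D3:**
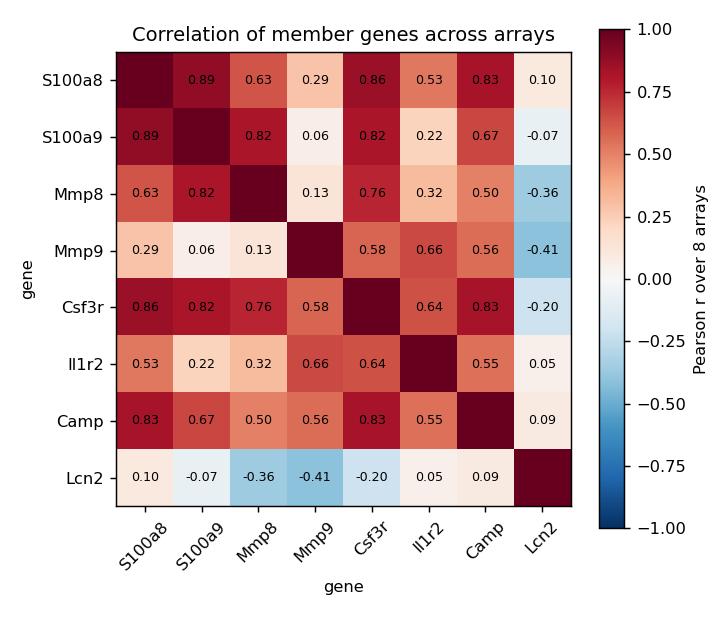
Pearson r over the 8 arrays between the 8 member genes, each read from its brightest probe set; red is positive and blue negative. S100a8, S100a9, Mmp8, Csf3r and Camp form a block with r from 0.50 to 0.89, while the Lcn2 row runs from -0.41 to 0.10.

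High-fat replicate 2 was the lowest array in 6 of the 9 member probe sets and in none the highest. The B cell marker list (5 of its 8 genes measured) scored 1.29 there and the T cell list (all 9 measured) 0.86, each the highest of the 8 arrays. The B cell scores of the other arrays ran from -0.996 to 0.51 with mulberry and from -0.77 to 0.68 with the high-fat diet, and T cell scores from -0.65 to 0.40 and from -0.20 to 0.05. The 5 B cell genes correlated with the mature score at a median r of -0.63, from -0.73 for Cd79b to -0.04 for Cd22. For the 9 T cell genes the median r was -0.18. These r values include high-fat replicate 2 and were not recomputed without it. The monocyte list, 11 of its 12 genes measured, was highest in high-fat replicate 4 at 1.68, where the mature score was 0.45. In high-fat replicate 2 the monocyte score was -0.29 and the hybridization controls stood at 0.44. Scores there were -0.05 for NK cells, -0.09 for eosinophils and basophils and -0.27 for platelets, so not every lymphocyte list was high. The part of cell makeup in the low calprotectin values was not tested.

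**Figure D4:**
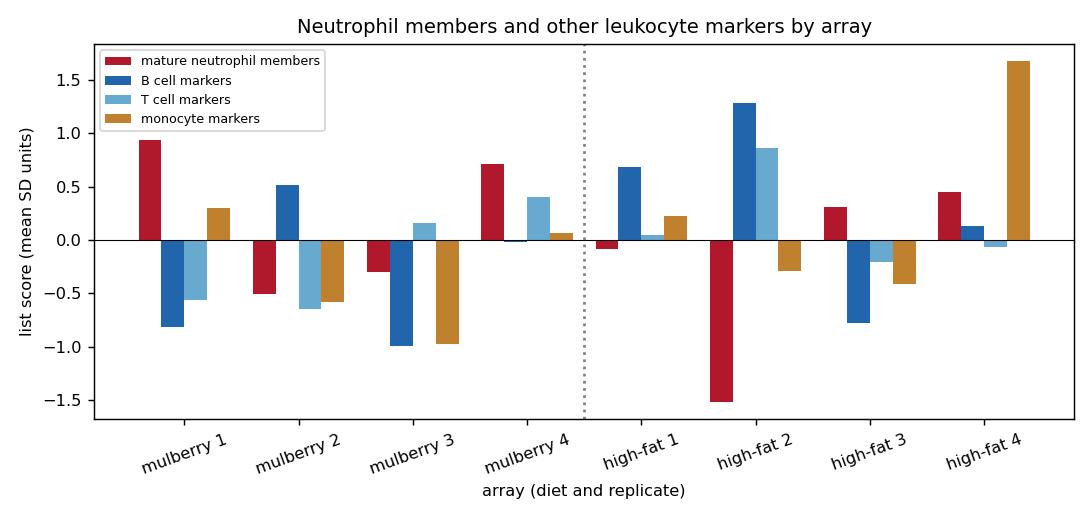
Scores by array, each the mean over a list's genes in SD units, for the 6 mature neutrophil members (red), B cell markers (dark blue), T cell markers (light blue) and monocyte markers (brown), mulberry arrays left and high-fat arrays right of the dotted line. High-fat replicate 2 has the lowest neutrophil score (-1.52) and the highest B cell score (1.29).

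Other neutrophil genes were read from lists. Among further granule and precursor genes, 18 of 27 were measured, 10 with a higher and 8 with a lower mean with mulberry (median 0.09), none past the adjusted threshold in limma. The granule peptidoglycan-binding gene Pglyrp1 differed by 0.93 ± 0.62 and Anxa1, an inflammation-resolving annexin, by 0.77 ± 0.66 (SE, neither passed). Gfi1, a repressor needed for granulocyte differentiation, differed by 1.30 ± 0.53 (limma unadjusted p = 0.0448, adjusted p = 1). Pglyrp1, Itgam, Anxa1, Slpi, Cebpa, Hp, Chi3l1 and Fcnb had r above 0.5 with the mature score, 8 of the 18, as had 7.19% of all probe sets naming 1 gene. The 4 defensin genes measured had r of -0.83 (RatNP-3b), -0.05 (Defa24), 0.07 (Np4) and 0.09 (Defa5).

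Of the neutrophil surface and signalling genes 14 of 22 were measured, 6 higher and 8 lower (median -0.25), none passing. The chemokine receptor gene Cxcr2 differed by 0.90 ± 0.63, Padi4, whose enzyme citrullinates histones in extracellular traps, by 1.07 ± 0.60, and Ptafr, the receptor of platelet-activating factor, by 0.62 ± 0.68 (SE). In this list 7 of 14 had r above 0.5 with the mature score, Cxcr2 at 0.78 and Ptafr at 0.71. So had 3 of 11 monocyte and 3 of 10 eosinophil and basophil markers, but 0 of 8 NK cell and 0 of 8 erythroid markers. The median r was 0.50 here and 0.38 in the granule and precursor list. It was 0.40 for monocyte and 0.40 for erythroid markers, so r with this score is not particular to neutrophil genes.

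The oxidase that makes the respiratory burst was measured by 5 of 6 genes, 1 higher and 4 lower (median -0.60, none passing). Its core subunit gene Cybb differed by -0.71 ± 0.66, Cyba by -0.60 ± 0.68 and Rac2, its small GTPase, by -0.93 ± 0.62 (SE). The oxidase score stood at 1.14 in high-fat replicate 4, and its difference of -0.44 was -0.13 without that array. Monocyte markers were lower in 10 of 11 (median -0.64, none passing), and their score difference of -0.59 was -0.14 without the same array. NK cell markers were lower in 8 of 8 (median -0.83, none passing) and scored 2.08 in that array. Their score difference of -0.79 was -0.23 without it. The part of monocytes or NK cells in the oxidase values was not tested.

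Ligands, partners and inhibitors of the members did not pass either. In the G-CSF signalling list, 4 of 11 genes were higher and 7 lower (median -0.32). The kinase gene Jak1 differed by -1.26 ± 0.53 (limma unadjusted p = 0.0492, adjusted p = 1), Stat5a by 1.15 ± 0.63 and Csf2rb, a shared cytokine receptor chain, by 0.88 ± 0.64 (SE). In the interleukin-1 list 3 of 8 measured genes were higher and 5 lower (median -0.20). Il1b, the ligand bound by the Il1r2 decoy, had r = 0.78 with the mature score, of which Il1r2 is a part. In this list 2 of 8 genes had r above 0.5, and the median was 0.16. Il1b differed by 0.75 ± 0.66, Il1rn, the receptor antagonist, by -0.87 ± 0.64 and Casp1, the protease that matures interleukin-1 beta, by -0.68 ± 0.67 (SE, none passing).

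Of 9 calprotectin receptors and S100 relatives, 3 were higher and 6 lower (median -0.42). The scavenger receptor gene Cd36 differed by -1.26 ± 0.53, S100a10 by -0.68 ± 0.67 and S100a4 by -0.65 ± 0.67 (SE, none passing). Among protease inhibitors, 9 of 12 were higher and 3 lower (median 0.08), with the cathepsin inhibitor gene Cst3 at 1.15 ± 0.57, Serpina3n at -0.77 ± 0.71 and Serpina1, which blocks neutrophil elastase, at 0.63 ± 0.68 (SE, none passing). Proliferation markers were higher in 2 and lower in 5 of 7 (median -0.30, none passing).

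The genes outside the list whose patterns were most like the mature score over the 8 arrays were Osgin1 (r = 0.99), Pih1d1 (0.98), Pilrb2l4 (0.96), Upp1 (0.93), Cdk13 (0.93) and Entpd5 (0.93). The differences of these 6 genes between the diets ran from -0.11 for Upp1 to 0.68 for Entpd5, and none passed in limma. Of all 20826 probe sets naming 1 gene, members included, 92 exceeded r = 0.8. For the score of Camp and Lcn2 the most like were Ctnnd2 (0.96), Pou3f3 (0.96), Hnf4a (0.95), Top2a (0.94), Zfp41 (0.93) and P2rx2 (0.93), with 172 above r = 0.8.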

How the data were processed

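Per the labels' protocols, total RNA was extracted from blood with TRIzol LS and labelled with biotin for Affymetrix arrays. The authors deposited 1 table of probe set values, read as log2 from their range. The sources used here do not give the summary method, the normalization or the log base, and the scale between arrays is compressed by an unknown amount. Of 31099 probe sets, 57 manufacturer controls were left out. Genes came from the platform annotation, with 436 tested probe sets naming several genes and 9780 unnamed here, and all 8 measured members matched RefSeq by gene number. No further normalization was applied.

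Diets were compared on all 31042 probe sets with limma 3.58.1 in R 4.3.3 (lmFit, eBayes, two-sided, Benjamini-Hochberg, threshold 0.05), member rows being read from that fit. Differences and SEs were divided by the probe set's SD over the 8 arrays. Scores average the brightest probe set per gene, scaled to unit SD, and carry no test. Pair correlations used all 40320 pairings of the arrays, two-sided (Python 3.11.15). Correlations with scores are descriptions. The limma step and the pair test were tested on simulated data. No counting depth applies to arrays, so the number of arrays limits the precision.

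The named genes are all members, the 6 genes most like each score, and for each list up to 3 genes of smallest p; the defensin genes, Hbb and the list genes with r above 0.5 were chosen after their values were seen. Members and lists were chosen with earlier results of these data known. Alternatives were quantile normalization, median centring, scaling before centring, a brightness filter, a replicate block, leaving out each array, control covariates, other variance models, other probe set rules, unscaled genes and rank correlation.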

Additional observations from a re-analysis of the deposited data

Results flagged for a closer look

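S100a8 in high-fat replicate 2 stood at -2.37 SD units, far from the other high-fat arrays (0.11 to 0.50). The gap was 0.866 of the group's range, above Dixon's critical value for 4 arrays. This was 1 of 22 groups examined, and chance flags about 1 group in 20.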

How the results depend on the processing

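No member passed in limma under any alternative run. Of 156 recomputed member differences, 131 kept their direction and 25 did not. The variance models, the replicate block and the brightness filter could not change a difference, so the 131 include values fixed in advance. With quantile normalization S100a8 was -0.633, the brighter Mmp9 probe set -0.707 and Csf3r -0.0635, the mature score difference was -0.31, and S100a9, Camp and the dimmer Mmp9 probe set had a difference of 0. Under it 12 of all probe sets passed, and 0 of the 21 pairs of members that could be tested. It made 5373 of 31042 probe sets equal on all arrays, S100a9 and the dimmer Mmp9 probe set among them. Their difference of 0 was thus fixed, and S100a9 dropped out of the mature score and the pairs. The brighter Mmp9 probe set, Mmp8 and Lcn2 all had the same difference, -0.707107. That value arises when 1 array alone differs and all others are equal. It is thus a step of 1 array, and for Mmp8 and Mmp9 it enters the mature score difference of -0.31. Without the 5373, a setting chosen after seeing the data, 3 passed. Median centring turned Mmp8 to 1.33 and Lcn2 to 0.57, put all mulberry arrays above all high-fat arrays in 2 member probe sets (7.93% of all probe sets), moved the score difference of Camp and Lcn2 to 0.956 (-0.15 as deposited) and left 0 of the 2 pairs. With hybridization controls Mmp8 was 0.36 and the score difference of Camp and Lcn2 0.45, and with the polyA controls that difference was 0.15. Without 1 array, S100a9 ran from -0.34 to 0.69, Mmp8 from -0.62 to 0.29, the dimmer Mmp9 probe set from -0.18 to 0.80, Csf3r from -0.0439 to 0.81, Camp from -0.45 to 0.66, and pairs from 0 to 6. Median centring adds the same offset to every probe set's difference. Beyond this the causes were not tested. The median r of the 15 mature pairs was 0.63, and 0.61 without high-fat replicate 2, also chosen after seeing the data. With the replicate number as a block 0 probe sets passed and 1728 had an unadjusted p under 0.05 (1352 without it), and no call changed. Deviations of same-numbered arrays correlated at -0.05, -0.05, 0.25 and 0.16, and 2 of 4 mulberry arrays correlated best with their own number. These few values cannot settle whether same-numbered arrays share more than a number. Precision is limited by 4 arrays per diet.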
